A study of Mus musculus with 12 samples.

Results

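The NRF2 antioxidant response genes are 10 genes taken by symbol from the 24062 genes of a mouse heart count table: Nfe2l2, Keap1, Nqo1, Hmox1, Gclc, Gclm, Txnrd1, Srxn1, Slc7a11 and Gsr. All 10 were in the table and all 10 passed the filter on low counts in every comparison. Polyadenylated RNA of whole hearts was sequenced as 1 library per mouse, with 3 mice in each of 4 groups. WT and KI/KI mice were 2 months old and littermates, and KI/KI mice were homozygous for the Lemd2 c.T38>G change, introduced by CRISPR-Cas9 and present in all cells. Floxed mice carried Lemd2 alleles with loxP sites around exon 1 and no Cre, and cKO mice carried the floxed alleles with Myh6-Cre, both at postnatal day 1 (P1). The Myh6 promoter drives Cre in cardiomyocytes, so that the other cells of a cKO heart keep the gene. No group carried Cre without floxed alleles, so that Cre and the loss of Lemd2 cannot be told apart. Lemd2 encodes a protein of the inner nuclear membrane.

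NRF2, encoded by Nfe2l2, is a transcription factor that binds antioxidant response elements together with small MAF proteins. In unstressed cells KEAP1 holds NRF2 in the cytoplasm and hands it to a CUL3 ubiquitin ligase for degradation, and oxidants or electrophiles that modify KEAP1 cysteines allow NRF2 to accumulate. Because NRF2 is regulated mainly at the level of the protein, its target mRNAs are the usual transcript readout: enzymes of glutathione and thioredoxin metabolism, quinone reductase and heme oxygenase, which protect the constantly respiring heart muscle from peroxides.

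Antioxidant response elements were looked for in the promoters of the members, from 250 bases before to 50 bases after each transcription start in RefSeq on GRCm38.p6. Sequences were matched for 7 of the 10 members, and not for Hmox1, Gclc and Gsr. The core letters TGACNNNGC or TGAGNNNGC, on either strand, were found for 5 members, Nfe2l2, Gclm, Txnrd1, Srxn1 and Slc7a11. Counted by promoter, they were in 5 of the 9 promoters of members, against 27.8% of all 32851 promoters of the table. The windows of 30 bases below, read 5′ to 3′ on the strand of the gene, are shown because they hold the cores of the members described next, with the core in capitals.
Srxn1, chr2:152105468-152105497, plus strand: caaattcacccTGAGTCAGCggccgggcgc
Txnrd1, chr10:82859103-82859132, plus strand: actggatttttGCTTTGTCAttctgacacg
Gclm, chr3:122245412-122245441, plus strand: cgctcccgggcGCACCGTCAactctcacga
Nfe2l2, chr2:75704884-75704913, minus strand: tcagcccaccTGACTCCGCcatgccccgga
The Srxn1 core lies 45 to 37 bases before the start and overlaps an AP-1 motif, TGANTCA on either strand, which was present in 7.81% of promoters. A separate AP-1 match lies 102 to 96 bases before the start. Other Srxn1 cores lie 158 to 150 bases before and 28 to 36 bases after the start. Txnrd1 has 3 annotated starts in the table, and the core lies 92 to 84 bases before 1 of them. No core was found for Keap1 and Nqo1 within these windows. A match describes letters and not a bound site.

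Slc7a11 had the largest fold change of the members, and its sequence upstream of the start, chr3:50443614-50443863 on the minus strand, is shown whole because it holds different motifs close together.
Slc7a11, 250 bases before the start: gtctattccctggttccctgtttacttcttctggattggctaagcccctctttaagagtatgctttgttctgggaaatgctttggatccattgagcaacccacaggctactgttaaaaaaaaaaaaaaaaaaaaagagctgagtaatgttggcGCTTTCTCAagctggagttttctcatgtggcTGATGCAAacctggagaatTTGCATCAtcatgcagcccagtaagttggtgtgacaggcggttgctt
The first run of capitals is the antioxidant response element core, 97 to 89 bases before the start and on the opposite strand. The second and the third are matches to TGATGNAA, the form of the composite C/EBP-ATF site that ATF4 binds in genes of amino acid supply. They lie 66 to 59 and 47 to 40 bases before the start, on opposite strands. That motif, on either strand, was present in 3.97% of promoters.

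Total counts ranged from 37063669 to 44789753 per library. Values are CPM, counts scaled to 1000000 per library and normalized by edgeR's TMM method over all 12 hearts. Before the TMM step, 3 counts correspond to at most 0.0809 per 1000000 counts of a library. Comparisons used edgeR's quasi-likelihood test on all genes that passed the filter, with Benjamini-Hochberg adjustment over them, and a gene passed at an adjusted p under 0.05. Lemd2, as a check of the labels, was at 31.9, 34.7 and 33.0 CPM in WT, 25.6, 25.1 and 24.8 in KI/KI, 24.4, 25.1 and 25.3 in floxed and 6.64, 13.1 and 11.3 in cKO hearts. The summed CPM of 8 cardiomyocyte markers ranged from 33796 to 91745 over the 12 hearts. Y-linked genes were low in 1 library, cKO replicate 4, with a mean log2 CPM of -0.94 against 5.56 to 6.26 in the other hearts.

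In adult KI/KI hearts 0 of the 10 members passed against WT hearts, as did 0% of the 14592 genes tested with edgeR's quasi-likelihood test. At an unadjusted p under 0.05 there were 1 member and 2363 genes, and DESeq2 called 1 member, Hmox1, and 529 genes. Hmox1 was also the single member whose 3 KI/KI hearts lay outside the range of the WT hearts, against 22.0% of all tested genes. The median log2 fold change was 0.04 over the members and 0.00 over all tested genes.

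In cKO hearts at P1 3 of the 10 members passed against floxed hearts, Txnrd1, Slc7a11 and Hmox1, and all were higher. Of 15317 tested genes 16.9% passed, 9.32% higher and 7.57% lower. DESeq2 called 4 members, the same 3 and Nfe2l2, all higher, and 3796 of all tested genes. Slc7a11 and Hmox1 rose by more than 2-fold. The groups did not overlap for 6 members, all higher in cKO hearts, against 39.3% of all tested genes in either direction and 20.1% higher. The median log2 fold change was 0.38 over the members and -0.00 over all tested genes. Without cKO replicate 4 the test was passed by 1 member, Txnrd1, and over the 6 fits that each left out 1 heart the count ranged from 0 to 3. The share of all tested genes that passed in these fits is not given here. A loss particular to the members and a loss over all genes cannot be told apart from these counts.

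**Figure D1:**
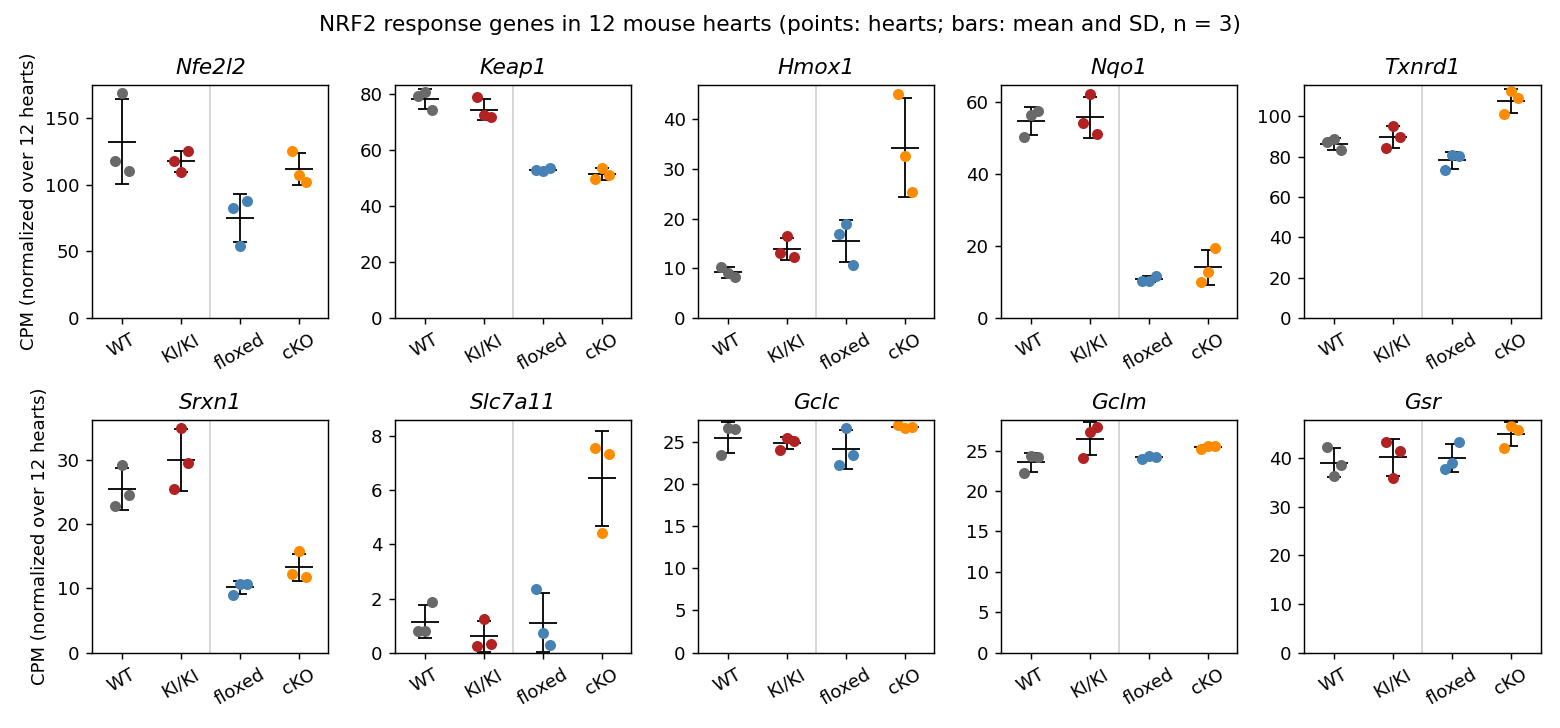
Normalized expression (CPM, linear axis from 0) of the 10 members in each heart. Points are hearts and bars are mean and SD (n = 3 mice per group), with adult groups left and P1 groups right of the grey line. The cKO hearts all lie above the floxed hearts for Nfe2l2, Hmox1, Gclm, Txnrd1, Srxn1 and Slc7a11, and WT and KI/KI hearts lie apart only for Hmox1.

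Nfe2l2, the gene of NRF2 itself, lies on the minus strand of chromosome 2 (GRCm38, 75675513 to 75704641). Its level was 118, 169 and 110 CPM in WT hearts and 118, 110 and 125 CPM in KI/KI hearts. The adult groups overlapped, and WT replicate 2 stood above all others. In floxed hearts it was at 82.5, 54.1 and 88.0 CPM, and in cKO hearts at 125, 107 and 102 CPM. All 3 cKO hearts were above all 3 floxed hearts, with a log2 fold change of 0.58 (standard error, SE, 0.19), and the adjusted p was 0.0785 with edgeR's test, so that it did not pass. DESeq2 gave an adjusted p of 0.0202, and a fit of all 12 libraries with edgeR gave 0.0451. In KI/KI hearts the log2 fold change was -0.16 (SE 0.16, adjusted p = 0.621 with edgeR), and it was 0.05 without WT replicate 2.

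Keap1, which encodes the sensor that keeps NRF2 low, lies on the minus strand of chromosome 9 (21229730 to 21239361). It was at 79.2, 80.8 and 74.1 CPM in WT hearts and at 78.7, 72.5 and 71.7 CPM in KI/KI hearts. In floxed hearts it was at 52.7, 52.5 and 53.6 CPM, and in cKO hearts at 49.5, 53.5 and 51.2 CPM. Both comparisons overlapped, and Keap1 was lower in every P1 heart than in every adult heart. Age, allele and preparation of each cohort cannot be told apart in that difference, whose size also rests on the TMM scaling between the ages. The 95% confidence interval of the fold was 0.868 to 1.06 in KI/KI and 0.868 to 1.09 in cKO hearts. In the annotation 510 bases, or 11.34% of its exon length, are shared with the antisense gene Gm16754, and the strand setting of the counting is not given in the sources used here.

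Hmox1 encodes heme oxygenase 1, which breaks heme down to biliverdin, carbon monoxide and iron, and lies on the plus strand of chromosome 8 (75093621 to 75100589). It was at 10.3, 9.00 and 8.24 CPM in WT hearts and at 13.1, 16.5 and 12.3 CPM in KI/KI hearts. Every KI/KI heart was above every WT heart, with a log2 fold change of 0.62 (SE 0.14) and an adjusted p of 0.201 with edgeR, against 0.0144 with DESeq2. In floxed hearts it was at 17.0, 18.8 and 10.6 CPM and in cKO hearts at 45.1, 32.5 and 25.4 CPM. The cKO hearts were all above the floxed hearts, and Hmox1 rose 2.23-fold (95% confidence interval 1.40 to 3.53, adjusted p = 0.0358 with edgeR). Without cKO replicate 4, the highest, the log2 fold change was 0.89 in place of 1.15 and the adjusted p 0.0621 with edgeR's test.

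Hmox1 is abundant in macrophages, which clear red cells, and macrophage markers were counted beside it. In KI/KI hearts 7 of 12 macrophage markers had every heart above every WT heart, against 11.2% of all tested genes. In cKO hearts 7 of the 11 tested had every heart above every floxed heart, against 20.1% of all tested genes. With edgeR's test 0 of 12 passed in KI/KI hearts, as did 0% of all tested genes. At P1 5 of 11 tested passed, all higher in cKO hearts, against 9.32% of all tested genes. In each comparison 2 macrophage markers were lower without passing. Their summed level was 365 to 507 CPM in WT, 542 to 617 CPM in KI/KI, 158 to 194 CPM in floxed and 177 to 373 CPM in cKO hearts. The heart with the highest sum in its genotype also had the highest Hmox1 in KI/KI (replicate 5), floxed (replicate 2) and cKO (replicate 4) mice, but not in WT mice. In cKO replicate 6 the markers summed to 177 CPM, inside the floxed range, while its Hmox1 of 25.4 CPM was above all floxed hearts. Summed markers of 8 erythroid genes were 35.6 to 57.8 CPM in WT, 45.8 to 62.0 in KI/KI, 32.2 to 36.6 in floxed and 35.5 to 53.2 in cKO hearts. No marker of either list was at 0 in every library. Their part in the Hmox1 result was not tested, and in whole hearts fewer cells of a type and less RNA per cell cannot be told apart.

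**Figure D2:**
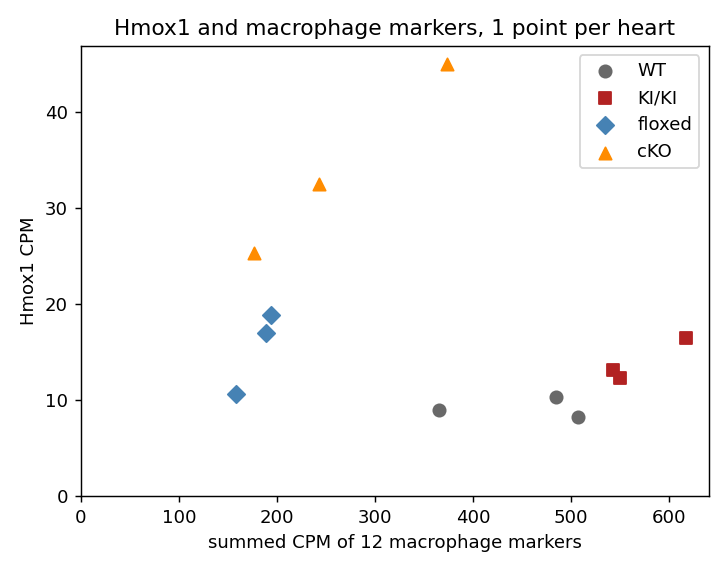
Hmox1 (CPM, vertical) against the summed CPM of 12 macrophage markers (horizontal), 1 point per heart, linear axes from 0. Hmox1 in cKO hearts was between 25.4 and 45.1 CPM, above the floxed hearts (10.6 to 18.8 CPM), and the cKO heart with the lowest marker sum lies within the floxed range of that sum.

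Slc7a11 encodes xCT, the light chain of the transporter that exchanges glutamate for cystine and so brings in the cysteine for glutathione, and lies on the minus strand of chromosome 3 (49892526 to 50443614). It was the least expressed member per kilobase in every group. Its counts were 25, 26 and 68 in WT and 8, 52 and 11 in KI/KI hearts, or 0.80, 0.79 and 1.86 CPM and 0.24, 1.25 and 0.31 CPM. The adult groups overlapped widely, and the 95% confidence interval of the fold, 0.185 to 1.60, spans both directions. In floxed hearts the counts were 103, 33 and 13, or 2.33, 0.72 and 0.28 CPM, and in cKO hearts 376, 212 and 304, or 7.56, 4.42 and 7.35 CPM. Every cKO heart was above every floxed heart, although the floxed hearts themselves ranged widely. Slc7a11 rose 5.87-fold (95% confidence interval 2.34 to 14.7, adjusted p = 0.0270 with edgeR). When single hearts were left out, its log2 fold change ranged from 2.08 to 3.68 and the adjusted p from 0.0314 to 0.105 with edgeR's test.

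The partner of xCT in the membrane is the heavy chain encoded by Slc3a2. It rose with a log2 fold change of 0.70 (SE 0.14, adjusted p = 0.0201 with edgeR) in cKO hearts, from 31.2, 39.3 and 34.3 CPM in floxed to 62.2, 60.2 and 47.8 CPM in cKO hearts. The adult hearts lay between 42.0 and 49.2 CPM in WT and between 43.0 and 47.7 CPM in KI/KI mice, which overlapped. The difference between the models in its log2 fold change was -0.71 (KI/KI less WT, minus cKO less floxed), with an adjusted p of 0.0493 with edgeR.

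The steps that turn cysteine into glutathione did not pass in either model. Gclc encodes the catalytic subunit of glutamate-cysteine ligase, the rate-limiting enzyme, and lies on the plus strand of chromosome 9 (77754535 to 77794485). It was at 23.4, 26.6 and 26.5 CPM in WT, 24.0, 25.4 and 25.1 CPM in KI/KI, 22.2, 26.7 and 23.4 CPM in floxed and 27.0, 26.6 and 26.7 CPM in cKO hearts. Both pairs of groups overlapped, and the 95% confidence intervals of the fold were 0.862 to 1.11 in KI/KI and 0.949 to 1.30 in cKO hearts.

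Gclm encodes the modifier subunit of the same enzyme and lies on the plus strand of chromosome 3 (122245557 to 122270732). Its level was 22.2, 24.3 and 24.2 CPM in WT, 24.1, 27.3 and 27.9 CPM in KI/KI, 24.0, 24.3 and 24.2 CPM in floxed and 25.2, 25.5 and 25.6 CPM in cKO hearts. The cKO hearts were all above the floxed hearts by a small step, and the adult groups overlapped. The log2 fold change was 0.17 (SE 0.08, adjusted p = 0.351 with edgeR) in KI/KI and 0.07 (SE 0.08, adjusted p = 0.523 with edgeR) in cKO hearts. The upper bounds of the 95% confidence intervals of the fold were 1.29 and 1.19.

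Gsr, on the plus strand of chromosome 8 (33652523 to 33698163), encodes glutathione reductase, which restores reduced glutathione from its oxidized form. It was at 42.2, 36.3 and 38.6 CPM in WT, 43.2, 35.8 and 41.3 CPM in KI/KI, 37.7, 39.0 and 43.2 CPM in floxed and 42.0, 46.6 and 45.8 CPM in cKO hearts. Both pairs of groups overlapped. Its adjusted p was 0.823 in KI/KI and 0.209 in cKO hearts with edgeR.

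Txnrd1 encodes cytosolic thioredoxin reductase, a selenoprotein that keeps thioredoxin reduced with NADPH, and lies on the plus strand of chromosome 10 (82833951 to 82897712). It was at 87.2, 88.5 and 83.0 CPM in WT and at 84.2, 95.2 and 89.8 CPM in KI/KI hearts. The adult groups overlapped, with a log2 fold change of 0.06 (SE 0.06, adjusted p = 0.623 with edgeR). In floxed hearts it was at 73.2, 80.6 and 80.3 CPM and in cKO hearts at 101, 113 and 109 CPM. The gap between these groups was wider than the range within either, and Txnrd1 rose 1.38-fold (95% confidence interval 1.22 to 1.55, adjusted p = 0.0116 with edgeR). It was the member with the smallest p in this comparison. With the Y-linked genes as a covariate, Txnrd1 alone of the members passed (adjusted p = 0.0252 with edgeR), while Hmox1 was at 0.0834 with a log2 fold change of 0.85 and Slc7a11 at 0.0631 with one of 2.37. This covariate mainly sets cKO replicate 4 apart, as does leaving that heart out, so that it is no separate check. The Y-linked genes and other traits of that heart cannot be told apart. When single hearts were left out, the log2 fold change of Txnrd1 ranged from 0.41 to 0.49 and it passed in 3 of 6 fits, with adjusted p values of 0.0817 without floxed replicate 1, 0.0520 without floxed replicate 2 and 0.0602 without cKO replicate 5 in edgeR.

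Srxn1, on the plus strand of chromosome 2 (152105516 to 152111376), encodes sulfiredoxin, which repairs overoxidized peroxiredoxins. It was at 22.8, 29.2 and 24.6 CPM in WT and at 25.5, 35.0 and 29.5 CPM in KI/KI hearts, which overlapped. In floxed hearts it was at 9.04, 10.7 and 10.7 CPM and in cKO hearts at 12.2, 15.7 and 11.8 CPM. The cKO hearts were all above the floxed hearts, and the log2 fold change of 0.38 (SE 0.15) had an adjusted p of 0.117 with edgeR and 0.0959 with DESeq2.

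Nqo1 encodes NAD(P)H quinone dehydrogenase 1, often used as a marker of NRF2 activity, and lies on the minus strand of chromosome 8 (107388225 to 107403206). It was at 50.2, 56.2 and 57.4 CPM in WT and at 54.2, 62.0 and 50.9 CPM in KI/KI hearts. In floxed hearts it was at 10.3, 10.1 and 11.7 CPM, and in cKO hearts at 9.92, 12.8 and 19.3 CPM. Both pairs of groups overlapped, and cKO replicate 6 was above the other P1 hearts while replicate 4 was the lowest of them. The log2 fold change in cKO hearts was 0.38 (SE 0.23, adjusted p = 0.281 with edgeR), and it fell to 0.08 without the highest cKO heart, replicate 6.

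**Figure D3:**
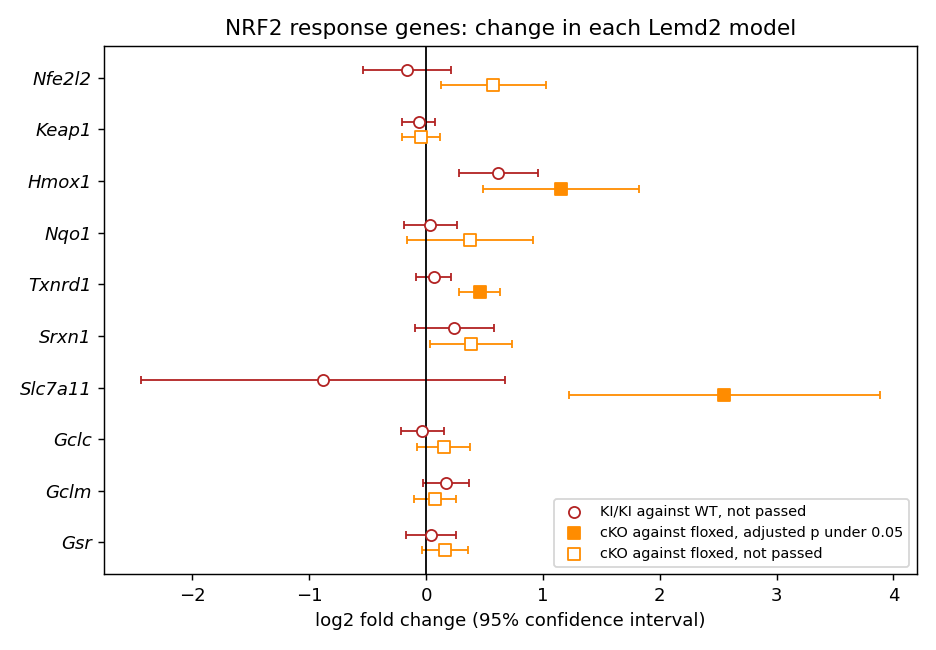
Log2 fold change (horizontal) of each member in KI/KI against WT hearts (circles) and cKO against floxed hearts (squares), with 95% confidence intervals from edgeR's quasi-likelihood fit of 3 against 3 hearts. Filled symbols passed an adjusted p of 0.05. The filled squares are Txnrd1 at 0.46, Hmox1 at 1.15 and Slc7a11 at 2.55, and no circle is filled.

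The models were compared directly in a fit of all 12 libraries, by the log2 fold change in KI/KI against WT minus that in cKO against floxed. Of the 10 members 0 passed with edgeR's test, against 2.43% of 15729 genes. At an unadjusted p under 0.05 there were 3 members and 3147 of all tested genes, and DESeq2 called 2 members and 1343 genes. Txnrd1 had a difference of -0.40 (SE 0.10, adjusted p = 0.0589 with edgeR), and Slc7a11 one of -3.44 (SE 0.99, adjusted p = 0.0884 with edgeR). The Hmox1 difference of -0.54 had a 95% confidence interval of the ratio of folds from 0.409 to 1.16, which includes 1. The call depended on the tool for these genes: DESeq2 passed Txnrd1 (adjusted p = 0.00321 with DESeq2) and Slc7a11 (0.0136), and with at least 10 counts in every library edgeR passed Txnrd1 (adjusted p = 0.0458). The models also differ in age and in the cells that carry the change, which cannot be told apart from the allele.

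The levels of Nqo1, Srxn1, Nfe2l2 and Keap1 were lower, and that of Hmox1 higher, in the P1 controls than in the adult controls. Floxed P1 hearts against adult WT hearts gave 5 of 10 members with an adjusted p under 0.05 in edgeR's fit of all 12 libraries, against 63.5% of 15729 genes, with 32.5% higher and 31.0% lower. Nqo1 fell by 2.35 on the log2 scale from adult to P1 hearts (SE 0.20, adjusted p = 1.8e-06 with edgeR), from 54.6 ± 3.87 to 10.7 ± 0.852 CPM (SD, n = 3). Srxn1 fell by 1.33 (SE 0.15), Nfe2l2 fell by 0.82 (SE 0.19) and Keap1 fell by 0.56 (SE 0.06) on the log2 scale, with the groups apart for each. Hmox1 rose by 0.76 (SE 0.25, adjusted p = 0.0193 with edgeR), and this call was lost without WT replicate 2, WT replicate 3, floxed replicate 1 or floxed replicate 2, with adjusted p values from 0.0527 to 0.0787. Gclc, Gclm, Gsr, Txnrd1 and Slc7a11 did not pass. Age, the floxed allele and the preparation of each cohort cannot be told apart here. The size of every difference between the ages also rests on the TMM scaling between them. Keap1 had 2470, 2648 and 2717 counts in WT hearts and 2326, 2403 and 2523 in floxed hearts. Library totals were 37063669 to 40229963 in WT and 37410752 to 42334448 in floxed hearts. The part of this scaling in the calls was not tested. Cell type markers differed between the ages as well, and their part in these values was not tested: summed fibroblast markers were 1996 to 2410 CPM in WT and 6313 to 7119 CPM in floxed hearts, and summed cardiomyocyte markers 79690 to 91745 CPM and 42428 to 49601 CPM.

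Per kilobase of exon in the GENCODE M21 annotation, mean levels in WT hearts ran from Nfe2l2 at 53.5 CPM per kb through Nqo1 at 35.2, Txnrd1 at 21.2, Keap1 at 17.3, Gsr at 14.6, Srxn1 at 9.07, Gclc at 7.45, Hmox1 at 5.85 and Gclm at 4.22 to Slc7a11 at 0.12. No neighbours in this order overlapped between the 3 WT hearts. In KI/KI hearts the order was the same except that Hmox1, at 8.91 CPM per kb, stood above Gclc at 7.25, and Hmox1 overlapped with Srxn1, as Keap1 did with Gsr. In floxed hearts Nfe2l2 led at 30.2 CPM per kb, followed by Txnrd1 at 19.2 and Gsr at 14.95, while Nqo1 stood at 6.90, after Hmox1 at 9.87 and Gclc at 7.04. The ranges of Hmox1, Gclc and Nqo1 overlapped there. In cKO hearts Hmox1 stood directly after Nfe2l2 and Txnrd1, at 21.9 CPM per kb, and its range from 16.2 to 28.7 overlapped with that of Txnrd1 and of Gsr.

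Other genes of the pathway were examined in 7 lists of 98 genes in all. In KI/KI hearts 0 of 93 tested genes passed with edgeR's test, with 22 at an unadjusted p under 0.05. Over all 14592 tested genes 2363 were under that p, and DESeq2 called 529. Of the pathway genes DESeq2 called 3, Gpx4 higher and Esd and Gstm2 lower. These 3 names were chosen after their values were seen. In cKO hearts 22 of 96 tested genes, or 22.9%, passed with edgeR, 17 higher and 5 lower, against the 16.9% of all genes. The median log2 fold change of the 96 genes was -0.00, as was that of all genes. The count was 1 without floxed replicate 1, 7 without floxed replicate 2, 3 without cKO replicate 5 and 13 with the Y-linked covariate. For those fits the share of all tested genes is not given here. DESeq2 called 34 of the pathway genes and 3796 of all 15317 tested genes.

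Regulators and partners of NRF2 had 7 of 15 tested genes past the threshold in cKO hearts, 6 higher and 1 lower. This was 46.7%, against 16.9% of all tested genes. Mafk, a small MAF that pairs with NRF2 or with the BACH repressors, went from 20.4, 20.7 and 24.5 CPM in floxed to 67.9, 60.7 and 45.8 CPM in cKO hearts (log2 fold change 1.41, standard error 0.17, adjusted p = 0.00654 with edgeR). The cKO hearts were all far above the floxed hearts, and WT (51.3 to 61.8 CPM) and KI/KI hearts (55.9 to 78.5 CPM) overlapped. Maff and Mafg, the other small MAF genes, which were named after their values were seen, rose by 1.59 and 0.40 on the log2 scale. Maff was at 6.96, 9.45 and 8.75 CPM in floxed and spread over 32.8, 28.1 and 14.3 CPM in cKO hearts. Mafg was at 18.5, 18.2 and 16.6 CPM in floxed and 25.1, 23.5 and 21.5 CPM in cKO hearts. Bach2, a repressor that competes for the same elements, rose by 0.54 (SE 0.08) and Prkcd, a kinase that phosphorylates NRF2, by 0.69 (SE 0.13). Bach1, the widely expressed BACH repressor of Hmox1, had a log2 fold change of 0.11 (SE 0.14, adjusted p = 0.612 with edgeR) and was named after its values were seen. Cul3, the ligase scaffold for KEAP1, was at -0.18 (SE 0.08, adjusted p = 0.174 with edgeR) and was also chosen so.

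Genes of glutathione synthesis, use and transport had 8 of 28 tested genes past the threshold in cKO hearts, 6 higher and 2 lower. This was 28.6%, against 16.9% of all tested genes. Beside Slc3a2, Gpx7, a glutathione peroxidase of the endoplasmic reticulum, rose by 0.48 (SE 0.09) on the log2 scale. Gstk1, a mitochondrial and peroxisomal glutathione transferase, fell by 0.84 on the log2 scale (SE 0.14, adjusted p = 0.0127 with edgeR), from 7.62, 7.55 and 8.87 CPM in floxed to 4.83, 4.28 and 4.33 CPM in cKO hearts. In adult hearts Gstk1 was at 67.5 to 75.3 CPM in WT and 35.2 to 61.5 CPM in KI/KI mice. Its KI/KI hearts all lay below the WT hearts, without passing the test.

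Of the thioredoxin and peroxiredoxin system 2 of 16 genes, or 12.5%, passed in cKO hearts, both higher, against 16.9% of all tested genes. Txn1, the cytosolic thioredoxin that Txnrd1 reduces, went from 70.4, 75.3 and 75.6 CPM in floxed to 102, 101 and 101 CPM in cKO hearts (log2 fold change 0.46, standard error 0.07, adjusted p = 0.00928 with edgeR). The log2 fold change of Txnrd1 was also 0.46. Prdx4, the peroxiredoxin of the endoplasmic reticulum, rose by 0.56 (SE 0.08).

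Of NADPH-producing enzymes 1 of 10 passed in cKO hearts, Mthfd2, a mitochondrial enzyme of one-carbon metabolism, with 5.46, 8.71 and 9.11 CPM in floxed and 24.4, 24.4 and 22.0 CPM in cKO hearts (log2 fold change 1.60, standard error 0.19, adjusted p = 0.00654 with edgeR). G6pdx, which opens the pentose phosphate route, was at 0.30 (SE 0.13, adjusted p = 0.162 with edgeR) and was named after its values were seen. Of heme and iron handling 1 of 10 passed, Ftl1, the ferritin light chain, which rose by 0.54 (SE 0.10). Of quinone and carbonyl detoxification 2 of 13 passed, the aldo-keto reductase gene Akr1b8, which rose by 0.78 (SE 0.18), and the carbonyl reductase gene Cbr1, which fell by 0.54 (SE 0.09). Of superoxide and peroxide scavengers 1 of 4 passed, Cat, the peroxisomal catalase, which fell by 0.51 (SE 0.11) on the log2 scale. In the order of these lists the shares that passed were 10%, 10%, 15.4% and 25%, against 16.9% of all tested genes.

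**Figure D4:**
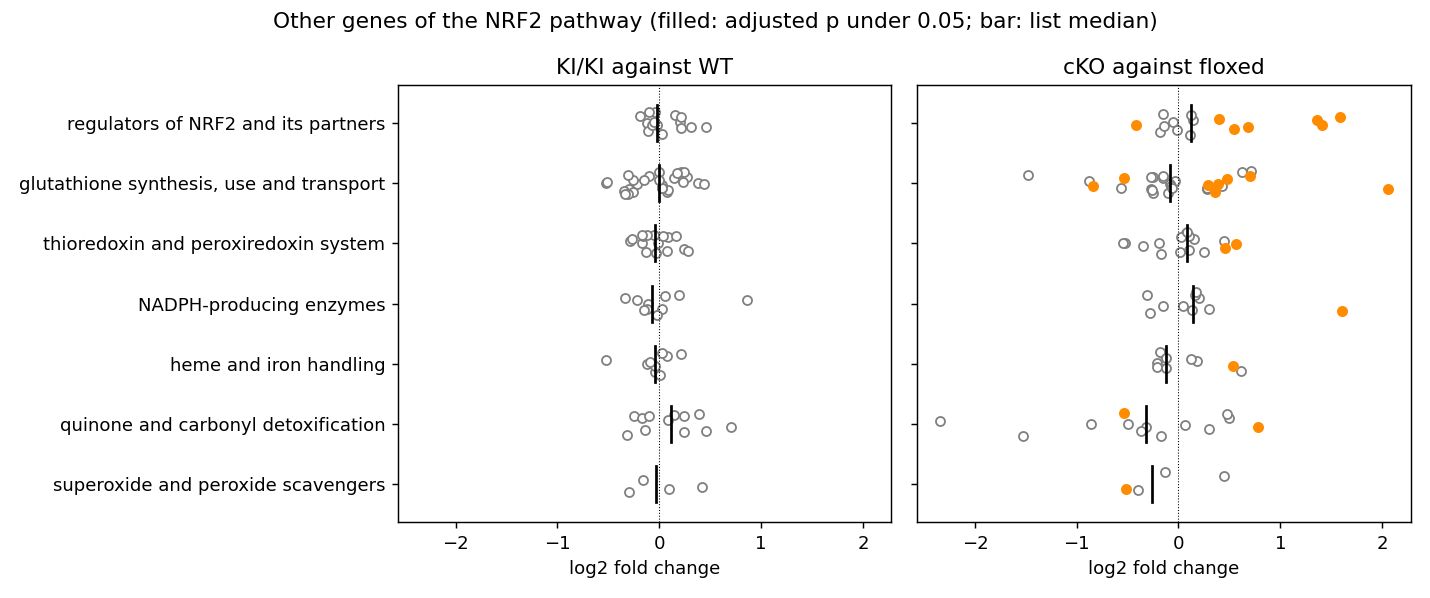
Log2 fold change (horizontal) of the other genes of the NRF2 pathway by list, in KI/KI against WT (left) and cKO against floxed hearts (right). Each point is a gene, filled where the adjusted p was under 0.05 with edgeR, and black bars are list medians. No point is filled on the left, and 22 of 96 are filled on the right, 17 of them above 0.

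Between the control groups 64 of 96 pathway genes, or 66.7%, passed with edgeR's test, 16 higher and 48 lower in P1 than in adult hearts. Over all genes the share was 63.5%, near that of the pathway genes, with 32.5% higher and 31.0% lower. These directions and sizes also rest on the TMM scaling between the ages. Among the regulators Nfe2l1, the relative of NRF2 that drives proteasome genes, fell by 1.40 on the log2 scale, and Sqstm1, the autophagy receptor that binds KEAP1, fell by 1.29, and Park7 fell by 0.73. Of the glutathione enzymes Gstk1 fell by 3.18, Gsto1 fell by 1.57 and Gpx4, the lipid hydroperoxidase, fell by 1.20. The peroxiredoxin genes Prdx5 and Prdx6 fell by 1.44 and by 1.04, and Msrb1 fell by 1.90. In the NADPH list Me1, the cytosolic malic enzyme, fell by 1.39 and Nnt, the mitochondrial transhydrogenase, fell by 1.29, while Pgd of the pentose phosphate route rose by 0.49. Ferritin heavy chain, Fth1, fell by 1.43, Fech, the last enzyme of heme synthesis, fell by 0.95 and Slc48a1, a heme transporter, fell by 0.32. Of the detoxifying enzymes Aox1 fell by 2.44, Ephx1 fell by 2.28 and Akr7a5 fell by 1.34, and of the scavengers Sod3 fell by 2.97, mitochondrial Sod2 fell by 1.34 and Cat fell by 0.79. Adjusted p values of these 21 genes with edgeR were at most 0.00101. Nqo1 and Srxn1 moved in the direction of most of the pathway genes that passed between the ages, and Hmox1 in the other.

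Summed cardiomyocyte markers were lower, and summed fibroblast and endothelial markers higher, in every cKO heart than in every floxed heart. The summed levels were 42428 to 49601 CPM in floxed and 33796 to 39349 CPM in cKO hearts for cardiomyocyte markers, and 6313 to 7119 CPM and 8467 to 9221 CPM for fibroblast markers. By edgeR's test 3 of 8 cardiomyocyte markers passed, all lower, against 7.57% of all tested genes. Of the fibroblast markers 3 of 8 and of the endothelial markers 2 of 7 passed, all higher, against 9.32% of all tested genes. The single markers did not all move alike. Without passing, 2 cardiomyocyte markers were higher, and 3 fibroblast and 2 endothelial markers were lower, in cKO hearts. Endothelial markers summed to 1155 to 1259 CPM in floxed and 1342 to 1644 CPM in cKO hearts. The part of cell composition in the changes of Txnrd1, Slc7a11 and Hmox1 was not tested.

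Over the 12 hearts, with log2 CPM centred within each age, the genes most like Txnrd1 were Capn2 (Pearson r = 0.990), Cdc42se1 (0.986) and Coro1c (0.985), among 15728 genes compared. Those most like Hmox1 were Clec4n (r = 0.989), Gp49a (0.960) and Sbds (0.953). For Slc7a11 they were Gm6682 (r = 0.949), Tnpo2 (0.930) and Mab21l3 (0.897), and for Nfe2l2 they were Mphosph10 (r = 0.927), Prdm4 (0.926) and Uap1 (0.923). Among the members the closest pairs were Txnrd1 with Srxn1 (r = 0.784) and Hmox1 with Txnrd1 (r = 0.725). These values describe 12 libraries in which group, depth and cell makeup are shared by all genes, and the differences between groups enter them.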

How the data were processed

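Counts per gene symbol were deposited as whole numbers, without normalization. To make them, the authors used Trim Galore for trimming, STAR 2.7.2b for alignment against mm10 and HTSeq for counting, as the paper and the submitters' processing notes state. The strand setting is not given in the sources used here. No pair of libraries was identical, and 0 value columns were left unmatched.

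The tests were run with edgeR 4.0.16 under R 4.3.3. For a comparison its 6 libraries were filtered with filterByExpr and then normalized by TMM. They were tested by the robust quasi-likelihood method, fitted on all genes that passed the filter, with Benjamini-Hochberg adjustment. Controls of both ages and the difference between models were contrasts in a fit of all 12 libraries. Alternatives were RLE size factors, DESeq2 1.42.0, which the study names, other filters, non-robust dispersion, 1 fit of all libraries, a Y-linked covariate and each library left out. Legacy dispersions were added after seeing the data. The test was checked on simulated counts.

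The members and the gene lists were chosen with earlier results of these data known. Named genes are the members, Lemd2, up to 3 genes with the smallest p per pathway list and comparison among those that passed, and, for the 4 members with the smallest p in cKO hearts, the 3 genes with the highest correlation of log2 CPM (prior count 0.5). Others are marked. Each mouse is 1 replicate. Floors and depths cover counting error only. Gene positions and exon lengths are those of GENCODE M21 on GRCm38, the assembly of mm10, and not of the authors' counting annotation.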

Additional observations from a re-analysis of the deposited data

Results flagged for a closer look

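For 4 of 96 tested pathway genes the change in KI/KI against WT hearts differed from that in cKO against floxed hearts. The difference itself was tested with edgeR in a fit of all 12 libraries. The share was 4.17%, against 2.43% of all 15729 tested genes. Mafk had a difference of log2 fold changes of -1.21 (adjusted p = 0.0286 with edgeR). The difference was -0.71 for Slc3a2 (adjusted p = 0.0493 with edgeR). For Txn1 it was -0.39 (adjusted p = 0.0370 with edgeR). Msra, a methionine sulfoxide reductase, had one of -0.74 (adjusted p = 0.0491 with edgeR), with 47.2 to 56.0 CPM in WT, 40.5 to 46.4 CPM in KI/KI, 20.6 to 25.8 CPM in floxed and 26.3 to 34.8 CPM in cKO hearts. Groups of 3 hearts are too small for the search for single outlying samples.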

How the results depend on the processing

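No paired analysis was possible because WT and floxed hearts carry the numbers 1 to 3 and KI/KI and cKO hearts the numbers 4 to 6, so that the groups compared share no number. DESeq2 gave 1 member (Hmox1) and 3 pathway genes in KI/KI hearts. In cKO hearts it gave 4 members (Txnrd1, Slc7a11, Hmox1 and Nfe2l2) and 34 pathway genes. The edgeR fit of all 12 libraries passed the same 4 members there. In the difference between models DESeq2 gave 2 members (Txnrd1 and Slc7a11). With at least 10 counts in every library that difference was passed by 1 member, Txnrd1, with edgeR. A Y-linked covariate, which mainly sets cKO replicate 4 apart, left 1 member and 13 pathway genes in cKO hearts. With each library left out in turn, passing members ranged from 0 to 3 in cKO hearts. Passing pathway genes ranged there from 1 (without floxed replicate 1) to 33. The share of all tested genes that passed in the fits with a covariate or a library left out is not given here. Members whose groups did not overlap ranged from 1 to 5 (without KI/KI replicate 4) in KI/KI and from 6 to 8 in cKO hearts. Groups of 2 against 3 hearts separate more easily than 3 against 3, and the share over all genes was not counted for them. The median of the members ranged from -0.016 (without KI/KI replicate 5) to 0.051 in KI/KI and from 0.30 to 0.45 in cKO hearts. Passing members between the ages ranged from 4 to 5. No member passed without floxed replicate 2 or without cKO replicate 5. Hmox1 passed in cKO hearts only without cKO replicate 6 among these 6 fits, Slc7a11 without floxed replicate 1 or cKO replicate 6, and Txnrd1 without floxed replicate 3, cKO replicate 4 or cKO replicate 6; a fit of 2 against 3 hearts has fewer samples. In the same fits the sign turned, never past the threshold, for Nfe2l2 (-0.27 to 0.049), Nqo1 (-0.052 to 0.098), Gclc (-0.096 to 0.0023) and Gsr (-0.010 to 0.12) in KI/KI hearts, and for Gclm (-0.0088 to 0.056), Slc7a11 (-1.24 to 0.45) and Gsr (-0.027 to 0.090) between the ages. Of 627 refitted member values 591 kept direction and side of the threshold. Slc7a11 in KI/KI hearts was not tested with at least 10 counts in every library, since 1 heart had 8. The cause of these changes was not tested. At 8 to 103 counts per control or KI/KI heart Slc7a11 is the member that depth limits most.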
